A study of Homo sapiens with 6 samples.

Results

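Epithelial cells hold to each other through junctions, and cells that pass toward a mesenchymal state give up part of that adhesion, rebuild their cytoskeleton and matrix, and move. The passage is called the epithelial-mesenchymal transition (EMT). It is driven by transcription factors such as ZEB1 and SNAI2, which bind E-box motifs and repress epithelial genes, and it is opposed by GRHL2 and OVOL2, which are known to repress ZEB1, and by the splicing factors ESRP1 and ESRP2, which keep epithelial exons in many mRNAs. Keratinocytes at a wound edge are known for a partial and reversible form of it, in which SNAI2 takes part.

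The genes described here were 10 regulators and markers of the 2 states, taken by symbol from the 12499 genes of the deposited count table. The mesenchymal genes were VIM, FN1, SNAI2, ZEB1 and CDH2, and the epithelial genes were ESRP1, ESRP2, GRHL2, OVOL2 and EPCAM. Of these, 9 had a row in the table, and all 9 passed the filter on low counts, ZEB1 only through the group in which it was higher. VIM, the intermediate filament protein of mesenchymal cells, was not analysed here. The lowest count of any gene in the table, summed over the 6 libraries, was 51. Shares of all genes given below are therefore shares of this table, and a gene without a row was not measured here.

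The libraries came from HaCaT cells, an immortalized human keratinocyte line. Cells of both groups were infected with lentivirus for 48 hours, with the virus named LV-ATF7 or with the control virus named LV-NC, and both groups were kept in high glucose (25 mM) for 24 hours, so no library without virus or with normal glucose enters the comparison. Poly(A) RNA was sequenced from 3 replicates per group, which gave 6 libraries of 16686472 to 20562768 counts. The labels do not say whether replicates were separate cultures, so p-values measure the spread between these libraries, which may be technical.

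The gene that the virus is named for went against the labels. ATF7 stood at 50.6, 46.4 and 52.2 CPM (counts scaled to a common library size by TMM) in the libraries labeled LV-NC. In those labeled LV-ATF7 it stood at 21.9, 25.7 and 28 CPM, a log2 fold change of -0.98 (SE 0.12, edgeR adjusted p = 1.89e-04). Every direction below is therefore that of the libraries labeled LV-ATF7 against those labeled LV-NC, and rests on the labels. Of the exon bases of ATF7, 18.2% are shared with another gene on the same strand and 27.1% lie opposite to other genes. Reads in the shared bases may belong to either gene, and reads in the opposite ones cannot be assigned if the counting ignored strand. The share of ATF7 reads in these bases was not measured. Across all genes, replicate 1 of LV-NC correlated with the other LV-NC libraries at r = 0.967 and 0.969, while those 2 correlated with each other at 0.994 and the LV-ATF7 libraries among themselves at 0.993 to 0.995. LV-NC replicate 1 lay on the LV-ATF7 side of replicates 2 and 3 for 61.5% of all genes tested. The same held for 7 of the 9 genes described here. Some results that rest on this library are also given without it, and for others the value of each library is given.

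The keratinocyte markers did not stand at the same level in both groups. All 12 were in the table, 10 were higher and 2 lower in the libraries labeled LV-ATF7 (of all genes tested, 34.7% were called higher and 32.9% lower), and their summed level was 2183 to 2895 CPM in LV-NC and 8818 to 9653 CPM in LV-ATF7. TP63, the master transcription factor of stratified epithelium, stood at 12.6 to 18.3 CPM in LV-NC and at 219 to 238 CPM in LV-ATF7. KRT5 and KRT15, keratins of basal cells, were higher at 3.65 and 3.43 on the log2 scale. KRT5 stood at 100, 355 and 344 CPM in LV-NC and at 3224, 3215 and 3622 CPM in LV-ATF7. KRT14, the partner of KRT5, was low in both groups, at 0.375, 12.5 and 11.3 CPM in LV-NC and at 1.45, 1.38 and 1.82 CPM in LV-ATF7, and its call (-2.37, edgeR adjusted p = 0.0461) was lost in 7 alternatives and was -2.96 without LV-NC replicate 1. Of the fibroblast markers, 3 of 10 were in the table, and of the 2 tested COL1A1 was lower (-1.13) and DCN was not called (2.24, edgeR adjusted p = 0.0682). DCN was counted 31, 0 and 0 times in LV-NC and 39, 59 and 51 times in LV-ATF7, so the groups did not overlap. DCN passed the filter on low counts only through LV-ATF7. The 3 markers summed to 35.1 to 42.7 CPM in LV-NC and 17.4 to 21.8 CPM in LV-ATF7, and PDGFRA, PDGFRB, COL1A2, COL3A1, LUM, FAP and COL6A3 had no row. Melanocyte markers (2 of 7 in the table, PMEL higher at 1.13 and MITF lower at -1.21) summed to 17.5 to 24.8 CPM in LV-NC and 12.2 to 13.0 CPM in LV-ATF7, without a row for MLANA, TYR, TYRP1, DCT or SOX10. Endothelial markers (2 of 6, CDH5 higher at 4.78 and VWF at 2.14) summed to 1.12 to 5.50 CPM in LV-NC and 84.6 to 89.9 CPM in LV-ATF7, without PECAM1, KDR, TEK or EMCN. CDH5 was counted 12, 71 and 84 times in LV-NC and 1452, 1691 and 1554 times in LV-ATF7. VWF was counted 9, 23 and 11 times in LV-NC and 64, 56 and 71 times in LV-ATF7. It had no value in the alternative with at least 10 counts in every library. Leukocyte markers (3 of 7, HLA-DRA higher at 3.08, or 3.85 without LV-NC replicate 1, CD14 at 2.33 and ITGAM not called) summed to 10.2 to 19.1 CPM in LV-NC and 84.0 to 96.5 CPM in LV-ATF7, without PTPRC, CD3E, CD68 or LYZ. The part of these marker differences in the results below was not tested. In bulk libraries, fewer cells of a type and less RNA per cell cannot be told apart.

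ZEB1 and CDH2 were lower in the libraries labeled LV-ATF7, and ESRP2, GRHL2 and OVOL2 were higher, while the epithelial surface gene EPCAM was lower. FN1, SNAI2 and ESRP1 did not pass the test. Thus 6 of 9 genes were called at an adjusted p under 0.05, against 67.6% of all 12462 genes tested. Of the 4 mesenchymal genes measured, 2 were called lower and 0 higher, and of the 5 epithelial genes, 3 were called higher and 1 lower, against 34.7% of all genes called higher and 32.9% called lower. The groups did not overlap for 7 of the 9 genes, against 72.7% of all genes tested. The share of calls among these genes is thus near the background of a comparison in which most genes differed, and the values of each gene carry the description.

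**Figure D1:**
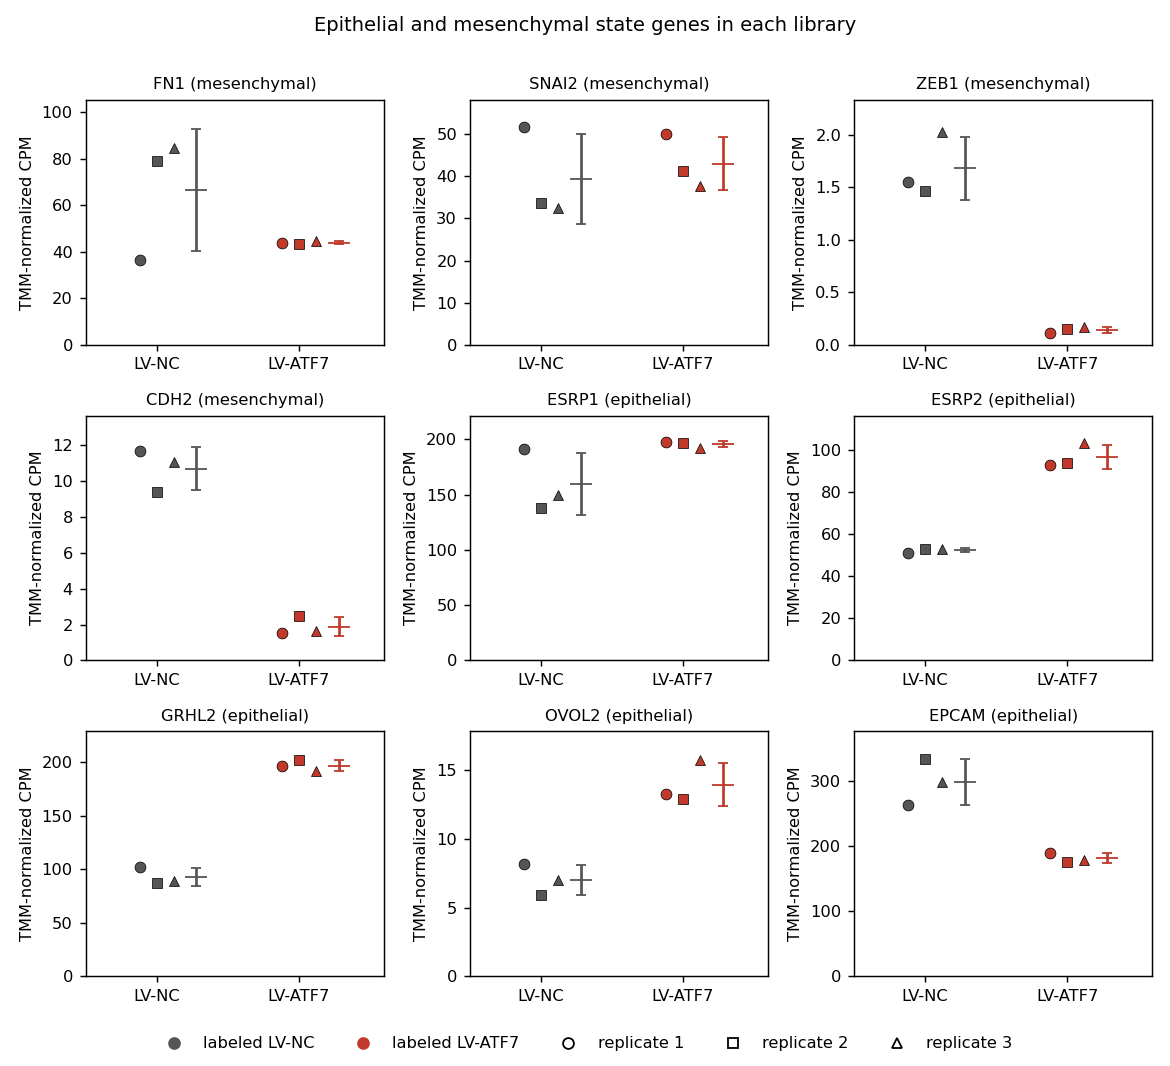
TMM-normalized CPM (y axis, from 0) of the 9 measured genes in the 3 libraries labeled LV-NC (gray) and the 3 labeled LV-ATF7 (red); marker shapes are replicate numbers, and the horizontal marks and bars are the mean and SD over 3 libraries. ZEB1 and CDH2 fall to 0.166 and 2.50 CPM or less in LV-ATF7, GRHL2 rises to 192 CPM or more, and EPCAM is lower in every LV-ATF7 library. For 7 of the 9 genes (not CDH2 and ESRP2), replicate 1 of LV-NC departs from replicates 2 and 3 toward or past the LV-ATF7 libraries. This is clearest for FN1, SNAI2 and ESRP1.

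ZEB1 encodes a zinc finger and homeobox repressor of epithelial genes, among them the E-cadherin gene CDH1. It lies on chromosome 10 at positions 31318495 to 31529814 (plus strand, GRCh38, GENCODE release 29). ZEB1 was counted 29, 28 and 35 times in the LV-NC libraries and 2, 3 and 3 times in the LV-ATF7 libraries. The 2 ranges lay far apart, although counts were low in both groups. ZEB1 passed the filter on low counts only through its LV-NC counts. The log2 fold change was -3.48 (SE 0.38, edgeR adjusted p = 9.63e-05). The summed counts, 92 against 8, gave a ratio of LV-NC over LV-ATF7 of 11.6 after scaling, with an exact 95% interval of 5.66 to 27.7 that covers counting error only. Of its exon bases, 4.23% lie on the opposite strand to exons of ZEB1-AS1, and reads there cannot be assigned if the counting ignored strand. ZEB2, its paralog, had no row in the table.

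The windows upstream of the ZEB1 start sites were searched for the letters that the proteins described here are known to bind, since ZEB1 had the largest fold change of the 9 genes. The motifs were the E-box CACCTG of the ZEB and SNAI proteins, CCGTTA of the OVOL proteins and AACCGGTT of the GRHL proteins, each on both strands, in the 250 bases before each start site of RefSeq (GRCh38.p14). ZEB1 has 7 such windows, and 3 of them held a match, 2 with the E-box and 1 with the OVOL motif. The 4 matches are shown in the direction of the gene with the motif in capitals, named by motif and by position on the plus strand of chromosome 10.
E-box, chr10:31318350-31318375: gaggtgacagCAGGTGagggccgggt
E-box, chr10:31318966-31318989: ccccaccaCACCTGaggaaaactt
E-box, chr10:31319121-31319146: tgtcgtaaacCAGGTGcggtggggag
OVOL motif, chr10:31319555-31319580: cctccctggaCCGTTAgccggcgccg
The first E-box starts 57 bases before the start site at 31318417, the next 2 start 242 and 85 bases before the start site at 31319216, and the OVOL motif starts 203 bases before the start site at 31319768. Over the 35116 windows of the same length in the RefSeq table, 17.5% held the E-box, 2.45% the OVOL motif and 0.117% the GRHL motif, so E-box letters are common. These shares are per window, and a gene with 7 windows has more room for a match to any motif, the OVOL motif included. In each of the 3 windows with a match, all 250 bases are annotated as exon. None of the 3 motifs was found in the 2 windows of CDH2 or in the window of FN1, which says only that these letters are not in those 250 bases. A match describes letters and was not tested for binding.

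CDH2 encodes N-cadherin, the adhesion protein that many mesenchymal cells carry in place of E-cadherin, and lies on chromosome 18 at 27950966 to 28177446 (minus strand). It was counted 218, 179 and 191 times in the LV-NC libraries, or 11.7, 9.38 and 11.1 CPM. In the LV-ATF7 libraries it was counted 27, 49 and 30 times, or 1.51, 2.50 and 1.66 CPM. Every LV-ATF7 library lay below every LV-NC library, and CDH2 was 5.63-fold lower, with a log2 fold change of -2.49 (SE 0.23, edgeR adjusted p = 4.14e-05). CDH1, which encodes E-cadherin, did not pass the test, at 319, 415 and 428 CPM in LV-NC and 319, 334 and 339 CPM in LV-ATF7 (log2 fold change -0.23, edgeR adjusted p = 0.137). Without LV-NC replicate 1, CDH1 was called lower as well, at -0.37 (edgeR adjusted p = 9.38e-06), so the fall of N-cadherin mRNA came without a rise of E-cadherin mRNA in either fit.

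FN1 encodes fibronectin, a matrix protein that keratinocytes also lay down and crawl on in wounds, and lies on chromosome 2 at 215360440 to 215436172 (minus strand). It stood at 36.6, 79.2 and 84.5 CPM in the LV-NC libraries and at 43.6, 43.5 and 44.8 CPM in the LV-ATF7 libraries. Replicate 1 of LV-NC lay below all LV-ATF7 libraries and the other 2 lay well above them, so the groups overlapped. The means were 66.8 ± 26.3 and 44.0 ± 0.727 CPM (SD, n = 3 each), and the log2 fold change of -0.60 (SE 0.28) was not called (edgeR adjusted p = 0.0836). Without LV-NC replicate 1 it was -0.92 (edgeR adjusted p = 1.82e-10). In replicate 1, FN1 differed from the mean of replicates 2 and 3 by -1.16 on the log2 scale, a deviation that 6.53% of the genes tested reached or passed.

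SNAI2 encodes the repressor Slug, the EMT factor best known from migrating keratinocytes, and lies on chromosome 8 at 48917604 to 48921740 (minus strand). Its level was 51.8, 33.7 and 32.6 CPM in the LV-NC libraries and 50.2, 41.2 and 37.8 CPM in the LV-ATF7 libraries. The groups overlapped, with replicate 1 of LV-NC the highest of the 6 libraries. The log2 fold change was 0.13 (SE 0.20, edgeR adjusted p = 0.581), and its sign turned to -0.040 when libraries were scaled by their total count alone. Without LV-NC replicate 1, SNAI2 was called higher at 0.36 (edgeR adjusted p = 0.00468), while without LV-NC replicate 2 or 3 the value was -0.0090 or -0.031 and was not called. SNAI2 was thus the mesenchymal gene whose direction these libraries do not settle.

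**Figure D2:**
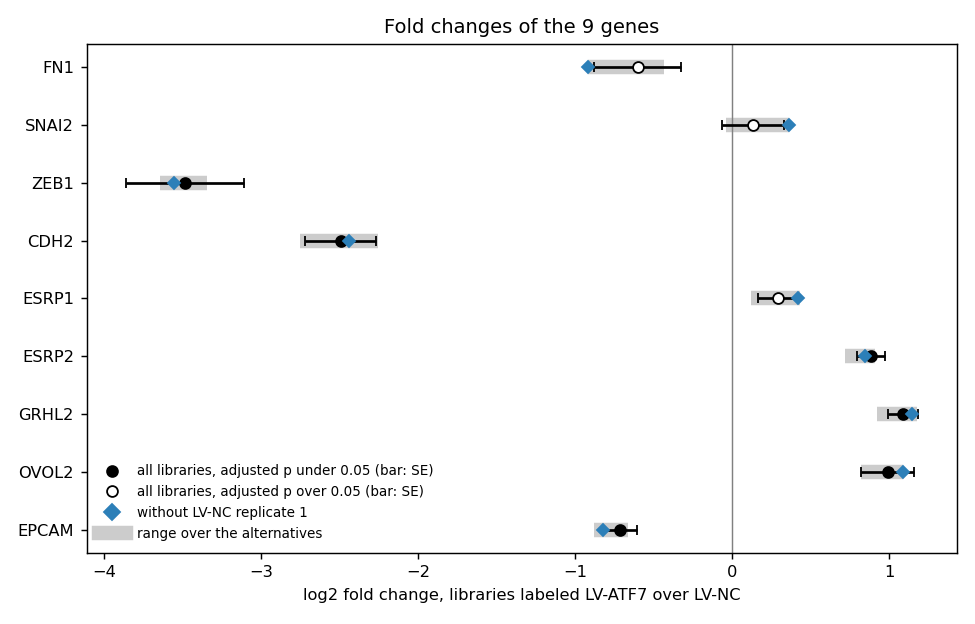
Log2 fold change of each gene in libraries labeled LV-ATF7 over LV-NC (x axis), with its standard error, derived from the F statistic of the test, as a bar. Filled circles passed the adjusted threshold of 0.05 and open circles did not. Blue diamonds leave out LV-NC replicate 1, and gray bands span the alternatives that were run. The 6 called genes keep their side of 0 over the whole band, whereas the band of SNAI2 runs from -0.040 to 0.36.

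GRHL2, a grainyhead transcription factor that upholds epithelial junction genes, had the largest rise among the epithelial genes. It lies on chromosome 8 at 101492432 to 101669726 (plus strand). GRHL2 stood at 102, 86.9 and 89.1 CPM in the LV-NC libraries and at 197, 202 and 192 CPM in the LV-ATF7 libraries. The lowest LV-ATF7 library lay well above the highest LV-NC library, and GRHL2 was 2.12-fold higher (log2 fold change 1.09, SE 0.095, edgeR adjusted p = 3.31e-05).

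OVOL2, a zinc finger repressor of ZEB1 and other EMT genes, lies on chromosome 20 at 17956979 to 18059188 (minus strand). It stood at 8.14, 5.92 and 7.0 CPM in the LV-NC libraries and at 13.2, 12.9 and 15.7 CPM in the LV-ATF7 libraries. The groups did not overlap, and OVOL2 was 1.98-fold higher (log2 fold change 0.99, SE 0.17, edgeR adjusted p = 0.00111). Of its exon bases, 2.71% are shared with SNX5 on the same strand.

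ESRP1 and ESRP2, close paralogs that bind RNA and set the epithelial splicing program, lie on chromosome 8 at 94641074 to 94707466 (plus strand) and on chromosome 16 at 68229111 to 68238102 (minus strand). ESRP2 stood at 51.2, 53.0 and 53.0 CPM in the LV-NC libraries and at 92.9, 93.6 and 103 CPM in the LV-ATF7 libraries, 1.84-fold higher (log2 fold change 0.88, SE 0.089, edgeR adjusted p = 6.99e-05). ESRP1 stood at 192, 138 and 149.5 CPM in the LV-NC libraries and at 197, 197 and 192 CPM in the LV-ATF7 libraries. Its groups were separate by a small margin, since LV-NC replicate 1 lay 93.8% of the way from the mean of replicates 2 and 3 to the LV-ATF7 mean on the log2 scale. The log2 fold change of 0.29 (SE 0.13) was not called with all libraries (edgeR adjusted p = 0.0751) and was 0.42 without LV-NC replicate 1 (edgeR adjusted p = 8.52e-06). Reads shared between the paralogs could be split by the authors' counting, which is not given in the sources used here.

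EPCAM, the epithelial cell adhesion molecule, moved against the other called epithelial genes. It lies on chromosome 2 at 47345158 to 47387601 (plus strand). EPCAM stood at 262, 333 and 298 CPM in the LV-NC libraries and at 189, 175 and 179 CPM in the LV-ATF7 libraries. Every LV-ATF7 library lay below every LV-NC library, and EPCAM was 1.64-fold lower (log2 fold change -0.72, SE 0.11, edgeR adjusted p = 5.88e-04). EPCAM is known as a marker of simple epithelium and of carcinoma cells, and is low or absent in normal stratified epidermis.

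Levels of different genes were compared per kilobase of exon. In the LV-NC libraries, EPCAM was highest at 118 ± 14.1 CPM per kilobase, followed by ESRP1 (32.8 ± 5.76), GRHL2 (15.3 ± 1.37), SNAI2 (11.6 ± 3.17), ESRP2 (9.42 ± 0.190), FN1 (3.86 ± 1.52), OVOL2 (3.23 ± 0.509), CDH2 (2.16 ± 0.239) and ZEB1 (0.194 ± 0.0348; SD, n = 3 libraries). SNAI2 overlapped with GRHL2 in these libraries, and FN1 overlapped with OVOL2 and with CDH2, so their order does not hold in every library. In the LV-ATF7 libraries, EPCAM was again highest at 71.9 ± 2.87, followed by ESRP1 (40.1 ± 0.555), GRHL2 (32.5 ± 0.826), ESRP2 (17.4 ± 1.03), SNAI2 (12.7 ± 1.89), OVOL2 (6.41 ± 0.706), FN1 (2.54 ± 0.0420), CDH2 (0.381 ± 0.108) and ZEB1 (0.0166 ± 0.00328), and no neighbors overlapped. The order depends on the gene length used. By the authors' deposited FPKM, GRHL2 was the second, SNAI2 the third and ESRP1 the fourth of the 9 in both groups. The authors' scaling of FPKM is not given. If it used the total counts of the table, the implied lengths were 1.57 to 6.69 times the length of exons counted once. For FN1 the implied length was 108 kilobases, so these lengths are not read as measured.

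Ratios of a mesenchymal to an epithelial gene within a library do not depend on how libraries are scaled, and are given as log2 ratios of counts per exon kilobase, without a test. ZEB1 over GRHL2 was -6.56, -6.40 and -5.97 in the LV-NC libraries and -11.30, -10.88 and -10.69 in the LV-ATF7 libraries, a difference of -4.65 between the means. ZEB1 over OVOL2 differed by -4.55, from -4.06 ± 0.30 in LV-NC to -8.61 ± 0.25 in LV-ATF7 (SD, n = 3). Both ratios with ZEB1 were separate between groups. In LV-ATF7 they rest on ZEB1 counts of 2, 3 and 3, so the spread between libraries may understate their error. CDH2 over CDH1 was -4.85 ± 0.36 in LV-NC and -7.17 ± 0.37 in LV-ATF7. SNAI2 over OVOL2 was 1.82 ± 0.23 in LV-NC and 0.98 ± 0.33 in LV-ATF7, without overlap, so SNAI2 mRNA stayed above OVOL2 mRNA per kilobase in every library. FN1 over EPCAM overlapped between groups, at -5.02 ± 0.53 and -4.82 ± 0.065, and its difference of 0.20 turned to -0.097 without LV-NC replicate 1. Within the splicing pair, ESRP1 over ESRP2 was 1.78 ± 0.27 in LV-NC and 1.21 ± 0.10 in LV-ATF7, without overlap.

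**Figure D3:**
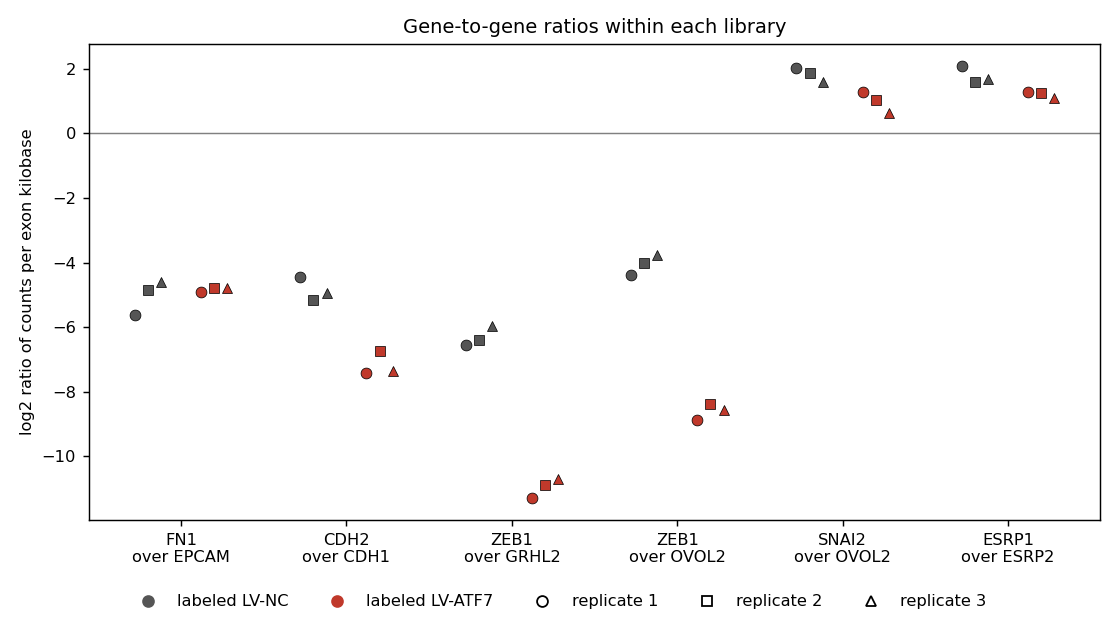
Log2 ratio of counts per exon kilobase (y axis) of 6 gene pairs within each library, gray for LV-NC and red for LV-ATF7, with marker shapes for replicate numbers; 0 means equal levels. The 2 ratios with ZEB1 differ between groups by -4.65 and -4.55, CDH2 over CDH1 by -2.32, and FN1 over EPCAM overlaps. In LV-ATF7 the ZEB1 ratios rest on ZEB1 counts of 2, 3 and 3.

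The families of these genes did not move as units. Among the SNAI factors, SNAI1, which encodes Snail, was counted 23, 76 and 56 times in LV-NC and 4, 2 and 3 times in LV-ATF7. The summed counts, 155 against 9, gave a ratio of 17.4, with an exact 95% interval of 8.94 to 38.8. That interval covers counting error only, and LV-NC replicate 1 differed from the mean of replicates 2 and 3 by -1.51 on the log2 scale. SNAI1 passed the filter on low counts only through its LV-NC counts. It had no value in the alternative with at least 10 counts in every library. The log2 fold change of SNAI1 was -4.06 (SE 0.59, edgeR adjusted p = 4.76e-04). SNAI3 was higher, at 1.31 (SE 0.29, edgeR adjusted p = 0.00402), and 9.41% of its exon bases lie opposite to SNAI3-AS1. Among the grainyhead factors, GRHL1 was lower while GRHL2 was higher, at 22.7, 22.0 and 21.7 CPM in LV-NC and 12.5, 11.8 and 11.4 CPM in LV-ATF7 (log2 fold change -0.89, SE 0.12, edgeR adjusted p = 2.50e-04). GRHL3, a factor of the epidermal barrier, overlapped between groups at 3.16, 20.9 and 19.0 CPM in LV-NC and 5.08, 4.54 and 4.92 CPM in LV-ATF7. Its call (-1.57, edgeR adjusted p = 0.0411) was lost in 6 of the 13 alternatives. Without LV-NC replicate 1, the log2 fold change of GRHL3 was -2.06 (edgeR adjusted p = 5.61e-13). OVOL1, the paralog of OVOL2 that acts in epidermal differentiation, was lower at 25.9, 49.8 and 47.1 CPM in LV-NC and 9.38, 8.21 and 9.95 CPM in LV-ATF7 (log2 fold change -2.16, SE 0.25, edgeR adjusted p = 1.41e-04), with 27.1% of its exon bases opposite to another gene. The differences between paralogs were not tested as such.

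**Figure D4:**
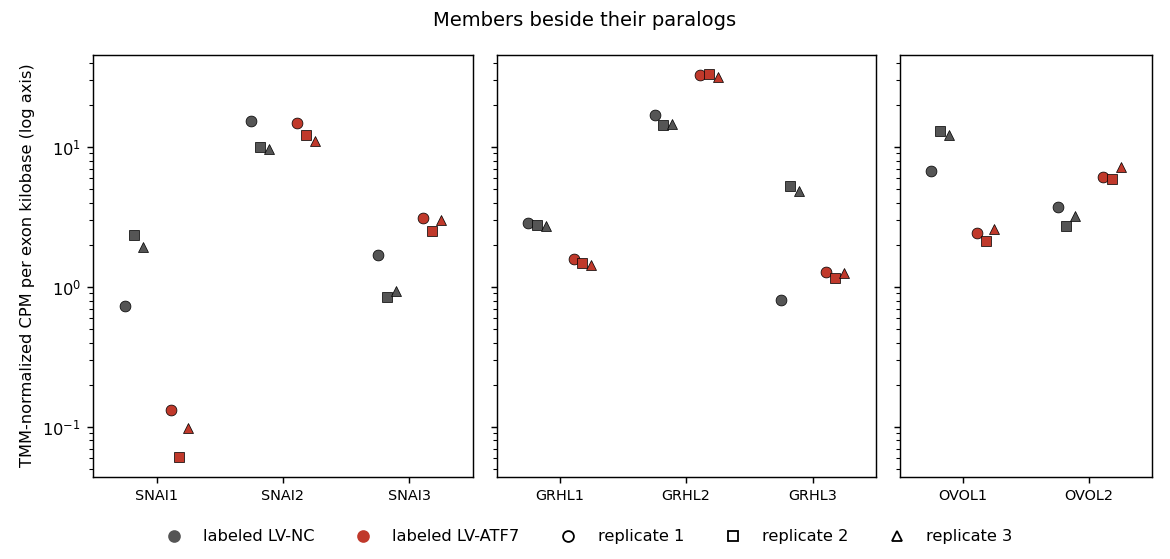
TMM-normalized CPM per exon kilobase (y axis, log scale, shared by the panels) of SNAI2, GRHL2 and OVOL2 beside their paralogs, in each library labeled LV-NC (gray) or LV-ATF7 (red), with marker shapes for replicate numbers. GRHL2 and OVOL2 are higher in LV-ATF7 where GRHL1 and OVOL1 are lower.

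Among the other EMT transcription factors, most of those measured were higher. Of 13 listed, 8 were in the table, 7 were called higher and 1 lower, where 34.7% and 32.9% of all genes tested were, with a median log2 fold change of 1.11 against 0.00016 over all genes tested. The rises included those of FOXQ1 (3.54, edgeR adjusted p = 1.66e-06), TCF4 (1.91), SNAI3 (1.31), TWIST2 (1.21), HMGA2 (1.01) and TCF3 (0.88), and the fall was that of SNAI1. FOXQ1, a forkhead factor also active in skin appendages, stood at 10.2 to 13.8 CPM in LV-NC and 125 to 146 CPM in LV-ATF7. The counts were 7 and 1 without LV-NC replicate 1 as well. SNAI1, the 1 called lower, passed the filter on low counts only through LV-NC. ZEB2, TWIST1, PRRX1, FOXC2 and GSC had no row.

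Other mesenchymal and matrix genes included large changes of both signs. Of 25 listed, 18 were in the table and 17 were tested. Of those tested, 11 were higher, 4 lower and 2 not called, with a median of 1.49, beside 34.7% higher, 32.9% lower and a median of 0.00016 over all genes. Without LV-NC replicate 1, 13 were higher and 5 lower, where 4989 and 5022 of all 12495 genes tested were. THY1 failed the filter, with 0, 37 and 20 counts in LV-NC and 1, 0 and 1 in LV-ATF7. COL1A2, COL3A1, COL5A2, CDH11, POSTN, PDGFRB and LOX had no row. S100A4, a calcium-binding protein of motile cells, was higher at 4.08 (1.31 to 1.97 CPM in LV-NC, 26.3 to 30.9 in LV-ATF7). The matrix protein gene SPARC was counted 41, 6 and 7 times in LV-NC and 179, 208 and 164 times in LV-ATF7, and was higher at 3.33, or 4.74 without LV-NC replicate 1. TNC, which encodes the wound matrix protein tenascin-C, fell by 3.68 on the log2 scale. It was counted 23, 207 and 250 times in LV-NC and 16, 15 and 7 times in LV-ATF7. TNC passed the filter on low counts only through LV-NC, and SPARC only through LV-ATF7. Among 12 integrins and other partners of fibronectin and vimentin, 3 were higher and 6 lower, with a median of -0.40. The 9 called of 12 stand beside 67.6% of all genes. The filament gene NES was higher at 1.92, from 8, 15 and 8 counts in LV-NC and 43, 41 and 35 in LV-ATF7. NES passed the filter on low counts only through LV-ATF7. The integrin gene ITGB8 was higher at 1.59, and the linker gene PLEC and the integrin gene ITGB5 were both lower at -1.24.

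The counts of other epithelial genes are read against the same background. Of 13 other epithelial transcription factors, 8 were higher and 5 lower (median 0.64), led by TP63 at 3.90 and OVOL1 at -2.16, with ELF3, a factor of epithelial differentiation, at 1.5. Of 25 junction and surface genes, 9 were higher, 9 lower and 7 not called, with a median of -0.080. With all libraries this is near the shares over all genes (34.7% higher, 32.9% lower), so that count says nothing particular about this list. Without LV-NC replicate 1, 10 were higher and 13 lower, where 4989 and 5022 of all 12495 genes tested were. The tight junction gene CLDN1 was higher at 3.15, whereas CLDN3 (-1.54), the membrane protease gene ST14 (-1.49) and the tight junction gene OCLN (-1.29) were lower. CLDN3 lost its call without LV-ATF7 replicate 1 (edgeR adjusted p = 0.0602) and without LV-ATF7 replicate 2 (0.0543).

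Of the splicing factors that share exons with the ESRP proteins, 11 were tested. Of these, 3 were higher, 0 lower and 8 not called, with a median of 0.080, beside 67.6% of all genes called. MBNL3 was higher at 2.57 and PTBP2 at 0.75, and RBM47 was called at 0.23 (edgeR adjusted p = 0.0469) and lost its call in 8 of the 13 alternatives. Without LV-NC replicate 1, 4 were higher and 3 lower. Of 11 genes that hold exons controlled by the ESRP proteins, 3 were higher, 3 lower and 5 not called (median -0.14), against the same 67.6%. CTNND1, which encodes p120-catenin, was higher at 1.79 and CD44 at 1.13, and GRHL1 (-0.89) and ARHGEF11 (-0.67) were lower. Gene counts hold no isoforms, so exon use under ESRP1 and ESRP2 was not measured.

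**Figure D5:**
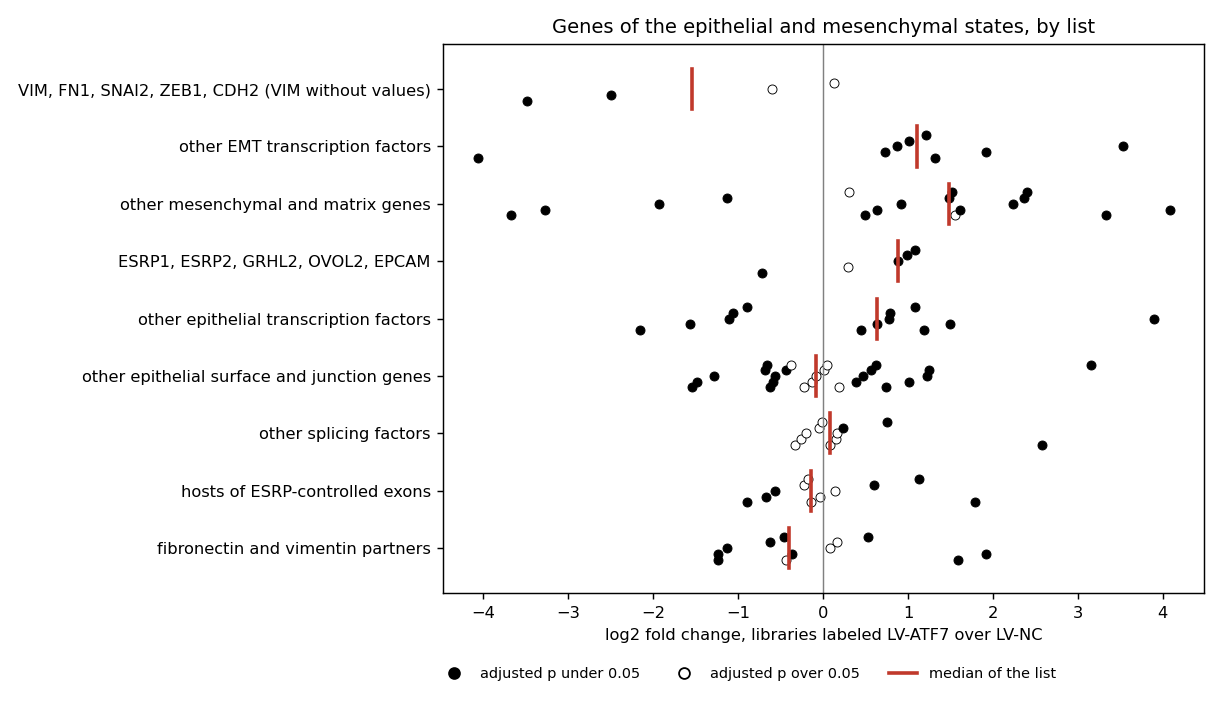
Log2 fold change in libraries labeled LV-ATF7 over LV-NC (x axis) of every tested gene of 9 lists; filled points passed the adjusted threshold of 0.05, open points did not, red lines are list medians, and the vertical scatter within a list has no meaning. The other EMT transcription factors lie to the right of 0 except SNAI1, and the junction and surface genes lie on both sides with a median of -0.080.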

How the data were processed

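Poly(A) RNA-seq of 3 libraries per group was analyzed. The values the authors deposited are unnormalized counts for each gene and FPKM; GRCh38 is named in the submitters' processing notes, and the aligner, counting program, strandedness and test are not given in the sources used here. The deposited fold changes and p-values of the authors' own comparison were not used. FPKM values were used only for the order of levels.

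Groups and replicate numbers came from the labels. Counts of all genes were scaled by TMM, filtered with filterByExpr (37 of 12499 genes failed) and tested with edgeR 4.0.16 (glmQLFit, glmQLFTest; R 4.3.3), with Benjamini-Hochberg adjustment over 12462 genes and a threshold of 0.05. Positions and exon lengths came from GENCODE release 29, in which 12485 identifiers were found. Genes named beyond the 9 were ATF7, CDH1, the paralogs, all measured EMT factors, and up to 4 called genes per list with the largest fold changes; KRT14, TP63 and other genes are also named as markers. Some genes that this rule names are not reported here. The genes and lists were chosen with earlier results of these data known. The pipeline was tested on simulated counts.

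Alternatives were DESeq2 1.42.0, scaling by library size only or by upper quartile, a minimum of 10 counts in each library in place of the filter, no filter, voom of limma 3.58.1 with quality weights per sample, a block for the replicate number, and leaving out each library.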

Additional observations from a re-analysis of the deposited data

How the results depend on the processing

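The 6 called genes (ZEB1, CDH2, ESRP2, GRHL2, OVOL2 and EPCAM) kept their direction and call in all alternatives that gave a value, 12 for ZEB1 and 13 for the others. With at least 10 counts required in every library, ZEB1 has no value, so 1 mesenchymal gene was called lower instead of 2; leaving out 1 library gave 2 to 3. The count of mesenchymal genes called higher was 1 with limma voom, and 0 to 1 when 1 library was left out. SNAI2 reversed to -0.040 with library size only, and ranged from -0.031 (without LV-NC replicate 3; -0.0090 without replicate 2) to 0.36 (without LV-NC replicate 1) when 1 library was left out. FN1 over EPCAM ranged from -0.097 (without LV-NC replicate 1) to 0.41. FN1 was called at -0.62 with DESeq2 (adjusted p = 0.0352), at -0.76 with library size only (edgeR adjusted p = 0.0330) and at -0.88 with limma voom (adjusted p = 2.45e-09); ESRP1 was called at 0.43 with limma voom (adjusted p = 1.11e-06).

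List counts were recomputed under settings chosen after seeing the data. With library size only, 2 splicing factors and 5 hosts of ESRP-controlled exons were lower. Without LV-NC replicate 1, 3 splicing factors, 2 fibroblast markers and 1 leukocyte marker were lower, and 1 fibroblast marker (DCN) was higher. Causes were not tested.

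Scaling by library size alone shifted the median of all genes by -0.16 on the log2 scale and gave 42.4% of calls higher, against 51.3% with TMM. The number of genes called, 8429, ranged from 7290 (without LV-ATF7 replicate 2) to 10391 (limma voom), and was 10011 without LV-NC replicate 1. Deviations of same-numbered libraries correlated at 0.058, -0.021 and 0.065, and those of differently numbered ones at -0.073 to 0.059. Centered on groups of 3 libraries, these values do not settle whether replicate numbers pair the libraries. With the replicate block, 8210 genes were called and the same 6 of the 9 genes passed. ZEB1 and SNAI1 are limited by their low counts.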
